A study of Mus musculus with 8 samples.

Results

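Iris leukocyte nuclei are the nuclei assigned to the leukocyte type in the deposited annotation of single nucleus (sn)RNAseq of the mouse iris. They numbered 387 of 34357 nuclei in 8 libraries (1.13%). All wild type mice were adult albino females, and each library was made from its own pool of irises with a part of the ciliary body. Untreated irises gave 3 libraries. Dilated irises gave 2 libraries, after hourly eye drops with the alpha-adrenergic agonist phenylephrine and the muscarinic antagonist cyclopentolate in mice kept in the dark. Constricted irises gave 3 libraries, after hourly drops with the muscarinic agonist pilocarpine in mice kept in the light. The drops and the lighting cannot be told apart in this design. The leukocyte nuclei held 940843 unique molecular identifiers (UMIs, counted RNA molecules), from 30205 in untreated replicate 1 to 263916 in untreated replicate 2. The median leukocyte nucleus had 1971 UMIs, against 3059 in all other nuclei.

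Tissue leukocytes carry the phosphatase CD45, encoded by *Ptprc*. In the iris stroma they are mainly resident macrophages, which depend on the receptor CSF1R and on the transcription factor PU.1 and which take up debris and mannose-bearing ligands through receptors such as MRC1 (CD206). Cells that carry class II molecules of the major histocompatibility complex (MHC) present peptides to helper T cells, and both macrophages and dendritic cells can do so. Cyclic AMP, which prostaglandin receptors raise in macrophages, is broken down by phosphodiesterases.

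The promoters of genes that set these nuclei apart are shown because PU.1, the factor that marks the macrophage and B cell lineages, binds a purine-rich core. The letters GAGGAA were searched on both strands in the 300 bases around each RefSeq gene start (GRCm38.p6, 250 bases before it and 50 after), and the capitals mark each match as GAGGAA or its reverse complement TTCCTC. Of the 24 genes that ranked highest in leukocytes over every other cell type, 17 had a RefSeq promoter, and 11 of these held the letters in at least 1 promoter (64.7%). Among 27025 genes the share was 31.3%, or 28.3% of 32851 promoters of this length. By promoter, 61.5% of the 26 promoters of these 17 genes held the letters. For genes that rose with dilation, described below, the share was 52.6% of 19 genes and 42.3% of 26 promoters, and for genes that fell it was 64.3% of 14 genes and 47.8% of 23 promoters. A gene with more promoters can hold a match in more places, so that shares by gene exceed shares by promoter. Promoters of 1 gene can also overlap. Windows of *Gm454* shifted by a few bases held the same match, as did overlapping windows of *Rbpj* and of *Selenop*. The shares by promoter count each such match more than 1 time. A match is a description of the letters and not a binding site. The sequences are those of *Ptprc* (chr1:138175256-138175555, minus strand), of the lectin gene *Siglech* (chr7:55767934-55768233, plus strand), of the signalling adaptor gene *Lcp2* (chr11:34046678-34046977, plus strand) and of *Mrc1* (chr2:14229164-14229463, plus strand), which held 3 matches.
Ptprc: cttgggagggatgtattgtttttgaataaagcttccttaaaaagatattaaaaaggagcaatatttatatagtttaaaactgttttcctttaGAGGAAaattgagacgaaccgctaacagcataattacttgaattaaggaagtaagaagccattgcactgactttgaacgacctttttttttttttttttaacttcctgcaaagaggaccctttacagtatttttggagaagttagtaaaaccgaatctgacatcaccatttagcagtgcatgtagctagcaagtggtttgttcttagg
Siglech: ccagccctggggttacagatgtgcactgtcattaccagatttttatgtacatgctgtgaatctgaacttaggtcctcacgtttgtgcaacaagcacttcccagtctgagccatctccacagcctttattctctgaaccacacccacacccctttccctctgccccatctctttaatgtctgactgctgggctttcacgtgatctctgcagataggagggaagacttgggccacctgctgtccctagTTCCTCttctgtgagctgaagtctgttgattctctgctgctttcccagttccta
Lcp2: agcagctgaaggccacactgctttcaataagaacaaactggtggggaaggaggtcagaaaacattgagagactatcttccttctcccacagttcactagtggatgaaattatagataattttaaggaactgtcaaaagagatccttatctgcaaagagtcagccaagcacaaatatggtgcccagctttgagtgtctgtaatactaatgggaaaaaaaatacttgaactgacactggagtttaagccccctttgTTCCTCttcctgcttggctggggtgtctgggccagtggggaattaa
Mrc1: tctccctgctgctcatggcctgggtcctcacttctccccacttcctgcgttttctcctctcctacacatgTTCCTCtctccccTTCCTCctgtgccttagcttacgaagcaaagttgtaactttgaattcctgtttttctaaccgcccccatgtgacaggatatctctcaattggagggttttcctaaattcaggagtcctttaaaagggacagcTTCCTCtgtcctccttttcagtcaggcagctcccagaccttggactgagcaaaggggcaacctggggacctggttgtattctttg

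In untreated irises the leukocyte nuclei carried a broad macrophage transcriptome. Transcript levels are given as counts per 1000000 summed UMIs (CPM), not scaled by gene length, as mean ± SD over the 3 untreated libraries. *Ptprc* stood at 497, 405 and 650 CPM in the 3 libraries (517 ± 123), and in the next highest cell type, sphincter muscle 1, at 1.36 CPM from 3 UMIs. *Mrc1* stood at 2549, 2531 and 2550 CPM (2543 ± 10.6) against 18.1 ± 12.3 in sphincter muscle 1, a ratio of 141. *Rbpj*, the DNA-binding partner of Notch receptors, stood at 4536, 2732 and 2779 CPM (3349 ± 1028) against 73.3 ± 17.2 in endothelial cells, a ratio of 45.7. All 3 genes were thus, in each untreated library, far above the mean level of every other cell type. The cell types were assigned from clusters of these same counts, so these levels are a description without a test.

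Of 3387 genes with enough UMIs to rank, 577 were more than 2-fold, 302 more than 4-fold and 158 more than 16-fold above the next highest cell type. The coagulation factor XIII subunit *F13a1*, a product of resident macrophages, stood at 2295 ± 631 CPM against 4.95 ± 5.38 in ciliary body epithelium. *Siglech* stood at 530 ± 225 CPM, *Ms4a7* and *Ms4a4a*, which encode tetraspanning membrane proteins of macrophages, at 372 ± 64.2 and 160 ± 120 CPM, and the endosomal RNA sensor *Tlr7* at 174 ± 83.0 CPM. The inhibitory receptors *Lair1* (324 ± 60.7 CPM), *Pirb* (241 ± 72.7 CPM) and *Cd300lf* (177 ± 76.1 CPM) also ranked among the top 24, as did the Fc receptor-like gene *Fcrls* (260 ± 84.0 CPM), the adaptor *Lcp2* (148 ± 42.7 CPM), the lectin genes *Cd209b* and *Clec2i*, the interferon-induced *Ifi207*, the activation markers *Cd48* and *Cd83* and the actin regulator *Nckap1l* (268 ± 46.1 CPM). The immunoglobulin heavy chain constant region gene *Ighm* was there too, at 234 ± 62.0 CPM. Of the 24, 6 carried only systematic names (*Gm40304*, *Gm10441*, *Gm30489*, *F630028O10Rik*, *3110035E14Rik* and *Gm454*), and the most abundant of these was *F630028O10Rik* at 854 ± 172 CPM. *Gm40304* and *Gm10441* lie within *Rbpj*, and *Gm30489* within *F13a1*, each on the opposite strand. In the next highest cell type each of the 24 genes rested on 1 to 14 UMIs, so that their order is uncertain.

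**Figure D1:**
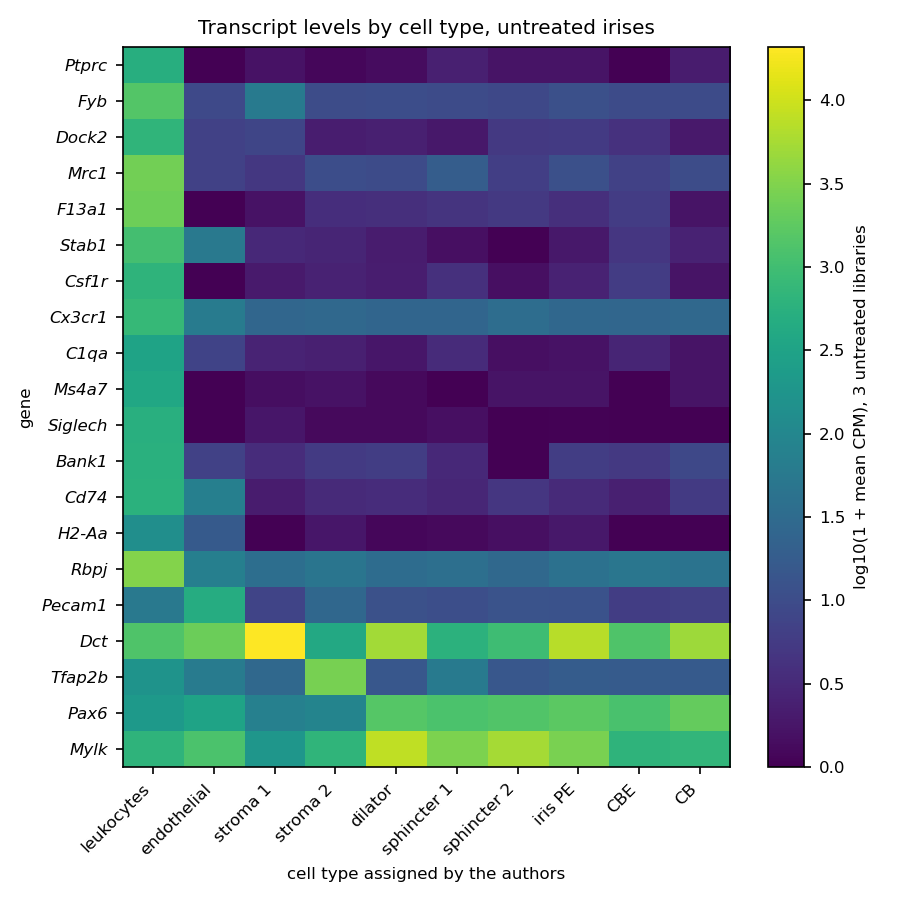
Mean transcript level in 3 untreated libraries, as log10(1 + CPM), of 20 genes (rows) in the 10 assigned cell types (columns; PE, pigment epithelium; CBE and CB, the authors' 2 ciliary body types). Leukocyte genes, from *Ptprc* to *Rbpj*, are brightest in the leukocyte column, while *Dct*, *Pax6* and *Mylk* of other iris cells are also above 0 there.

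Transcripts of the surrounding iris cells were present as well. *Dct*, the melanin pathway enzyme of the stroma 1 and pigmented cells, stood at 1327 ± 673 CPM in leukocyte nuclei and at 20924 CPM in stroma 1, and the myosin kinase *Mylk* of muscle at 642 ± 386 CPM. The stroma 1 list of 9 genes summed to 2599 ± 1076 CPM in untreated, 3508 ± 880 in constricted and 1948 ± 235 in dilated libraries. The muscle list of 11 genes summed to 1047 ± 862, 1758 ± 524 and 984 ± 103.2 CPM. For both lists the constricted libraries overlapped the untreated and lay above both dilated libraries, and the part of these transcripts in the results was not tested. Scrublet called 29 leukocyte nuclei doublets (7.49%, against 0.971% of all other nuclei), and 27 (6.98%) had more UMIs of the marker lists of other iris cells than of leukocyte lists. No cell barcode occurred in more than 1 library.

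Nearly all leukocyte nuclei carried macrophage transcripts, while several defining transcripts of T and NK cells had no UMI and, of the B cell genes, *Bank1* and *Ighm* alone were well above 0. Of 27 macrophage genes all had UMIs, and they summed to 17183, 14558 and 15460 CPM in the 3 untreated libraries (15733 ± 1334) against 549.5 CPM in all other nuclei. UMIs of at least 2 of these genes were found in 98.7% of leukocyte nuclei and 36.9% of other nuclei, or in 97.8% and 7.46% once every nucleus was thinned to 1000 UMIs, which left out 28 shallower leukocyte nuclei. The pan-leukocyte list gave 99.2% and 1.39%. *Slc9a9*, an endosomal sodium-proton exchanger (2377 ± 253 CPM), *F13a1* and the transcription factor *Maf* (1228 ± 207 CPM) were the most abundant macrophage genes beside *Mrc1*. *Csf1r* stood at 653 ± 50.9 CPM, PU.1 itself (*Spi1*) at 360 ± 75.3 CPM and the fractalkine receptor *Cx3cr1* at 778 ± 110 CPM.

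Lymphoid lists were carried by few genes. For T cells, *Cd3e*, *Cd3g*, *Trac*, *Bcl11b* and *Cd8a* had no UMI in 387 nuclei, which allows a share of up to 0.775% of nuclei with a UMI of each. UMIs of at least 1 of 15 T cell genes were found in 16.02% of leukocyte and 7.49% of other nuclei, and UMIs of at least 2 in 1.29% and 0.274%. Some T cell genes had UMIs in a larger share of leukocyte than of other nuclei, with *Cd4* at 5.68% and 0.05004%, the interleukin-7 receptor gene *Il7r* at 3.88% and 0.0471% and the costimulatory receptor gene *Cd28* at 2.58% and 0.103%. For NK and cytotoxic cells, *Ncr1*, *Gzma*, *Gzmb* and *Prf1* had no UMI, the activating receptor gene *Klrk1* was found in 1.81% of leukocyte and 0.00883% of other nuclei, and no nucleus had 2 genes of the list. Only 6 of the 11 genes of that list were in the deposited counts. UMIs of at least 1 of 8 B cell genes were found in 61.2% of leukocyte nuclei and 3.23% of other nuclei, and UMIs of at least 2 in 16.8% and 0.0324%. These UMIs came mainly from *Bank1*, an adaptor of B cell receptor signalling, with 444 UMIs in 198 nuclei, and *Ighm*, with 124 UMIs in 98 nuclei. The other B cell genes were near 0, with 4 UMIs of *Ms4a1* (CD20), 2 of *Cd79a*, 1 of *Pax5*, 5 of *Cd22* and 2 of *Blk*. The neutrophil list likewise came from the G-CSF receptor *Csf3r* (103 UMIs), with no UMI of *Cxcr2*. Only 3 of its 8 genes were in the deposited counts, so a low share with 2 or more genes says little. At least 1 of its genes was found in 21.2% of leukocyte and 1.99% of other nuclei. The mast cell list was found in 4.13% of leukocyte and 4.62% of other nuclei, a level of background. Of the microglia list, *Siglech* had 427 UMIs, the purinergic receptor *P2ry12* 172 UMIs and *Tmem119* 18 UMIs. At least 2 genes of that list were found in 43.9% of leukocyte nuclei and 1.01% of other nuclei.

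**Figure D2:**
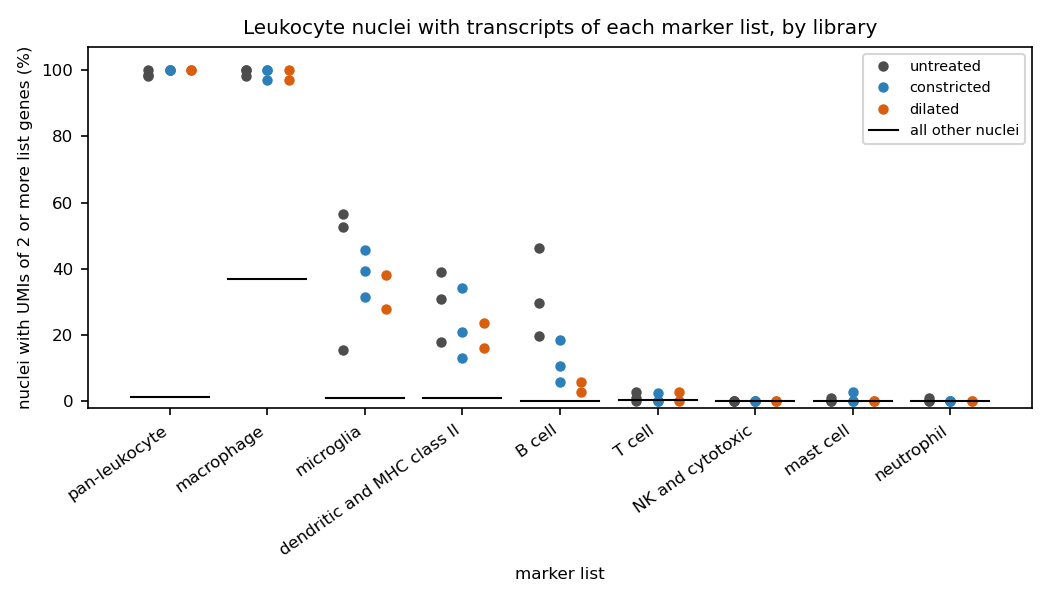
Percent of leukocyte nuclei with UMIs of 2 or more genes of each marker list (y axis) for 9 lists (x axis), with 1 point per library and a black line for all other nuclei. Pan-leukocyte and macrophage lists sit near 100% in all 8 libraries, while T cell, NK, mast cell and neutrophil lists sit near 0. Only 3 of 8 neutrophil and 6 of 11 NK genes were in the deposited counts.

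Shares of leukocyte nuclei with at least 1 gene of 5 lists were compared between dilated and untreated libraries. The macrophage list was at 99.3% in dilated and 100% in untreated libraries (p = 0.4), the dendritic and MHC class II list at 48.5% and 58.0% (p = 0.5), the T cell list at 22.1% and 14.9% (p = 0.1), the B cell list at 45.6% and 66.2% (p = 0.2) and the NK list at 1.47% and 3.51% (p = 0.5), in two-sided exact permutation tests over 2 and 3 libraries. The adjusted p was 0.5 for each of the 5, and 0.1 is the smallest p that this design allows, so no difference could pass the threshold. The T cell difference of 7.12 percentage points was 1.504 after thinning to 1000 UMIs.

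Transcripts of a list of dendritic cell and MHC class II genes were spread unevenly over the leukocyte nuclei. No UMI of the list was found in 195 nuclei, 100 nuclei had UMIs of 1 such gene, and 92 had UMIs of 2 or more (23.8%, against 1.05% of all other nuclei and 11.0% of endothelial nuclei). The median depths of these sets were 1866, 2048 and 2242.5 UMIs. The sets were cut from the counts and are parts of a range, not cell types. The share with 2 or more genes was 30.8%, 17.9% and 39.2% in the untreated libraries, 13.2%, 21.1% and 34.3% in the constricted and 16.2% and 23.5% in the dilated, so that the 3 groups overlapped. The invariant chain *Cd74* (573 ± 422 CPM in untreated libraries) was the most abundant gene of the list, before the class II chains *H2-Aa* (136 ± 123 CPM) and *H2-Ab1* (105 ± 98.2 CPM) and their transactivator *Ciita* (56.2 ± 42.5 CPM). The dendritic cell gene *Clec9a* had no UMI.

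Pooled levels of genes outside that list differed between its ends. Over the summed UMIs of the 92 nuclei with 2 or more genes, the monocyte chemokine receptor *Ccr2* was at 357 CPM, and in the 195 nuclei with none it had no UMI. These *Ccr2* UMIs came from 23.9% of the 92 nuclei, and 62 of the 92 also had *Mrc1*. *Mrc1* was at 1641 CPM in the 92 nuclei and 2436 CPM in the 195 nuclei, *F13a1* at 1279 and 2364 CPM, the hemoglobin-haptoglobin receptor *Cd163* at 116 and 298 CPM and the scavenger receptor *Stab1* at 881 and 1655 CPM. *Ptprc* was at 677 and 411 CPM and *Csf1r* was at 594 and 638 CPM. These are values over all libraries pooled. Over single libraries with at least 5 such nuclei, the ranges of the 2 sets did not overlap for *F13a1*, at 36.04 to 1558 and 1659 to 4965 CPM. They overlapped for *Mrc1* (252 to 2057 and 454 to 3798 CPM), *Cd163* (0 to 237 and 0 to 814), *Stab1* (261 to 1899 and 929 to 2401), *Ptprc* (492 to 937 and 314 to 852) and *Csf1r* (0 to 766 and 210 to 1008). *Ccr2* ran from 0 to 647 CPM in the nuclei with 2 or more genes and was at 0 in those with none. The sets were cut from the same libraries, and these ranges were not tested. *Ccr2* was highest in untreated replicate 3 and constricted replicate 3, at 248 and 230 CPM over all leukocyte nuclei of the library, and at 64.4 CPM or less in the other 6. The plot by number of genes of the list shows the pooled levels of 12 genes. Called doublets were 5.43% of the 92 and 7.18% of the 195 nuclei.

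**Figure D3:**
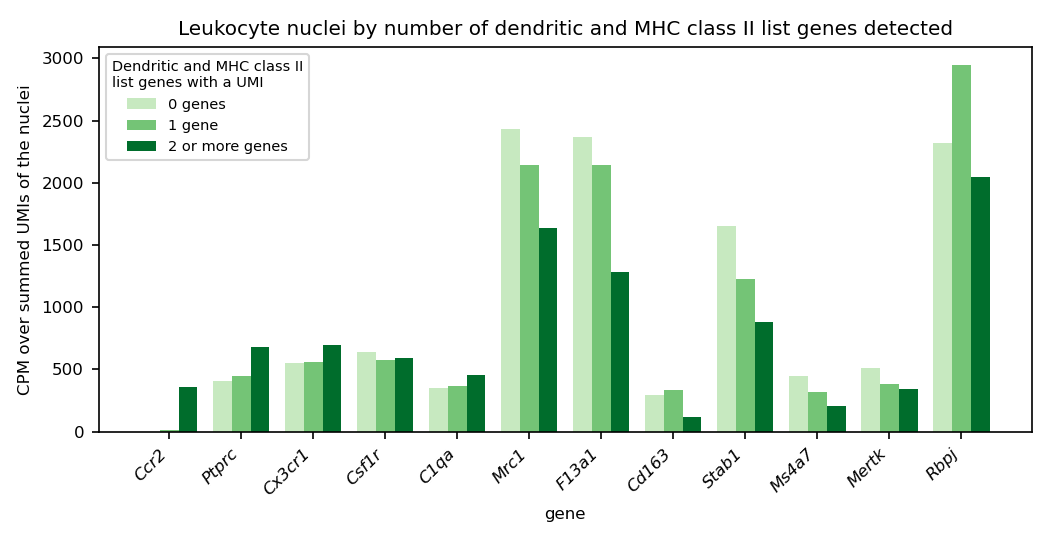
Level of 12 genes (x axis) over the summed UMIs of leukocyte nuclei with UMIs of 0, 1, or 2 or more genes of the dendritic and MHC class II list (195, 100 and 92 nuclei), in CPM (y axis, from 0; no replicate error, as nuclei of all libraries were summed). *Ccr2* appears almost only in the darkest bars, and the pooled levels of *Mrc1*, *F13a1* and *Stab1* are lower there.

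The share of leukocytes among nuclei overlapped between the groups. They were 0.879%, 1.66% and 1.14% of the nuclei of the untreated libraries (1.23 ± 0.397), 0.898%, 1.49% and 1.01% of the constricted (1.13 ± 0.315) and 0.929% and 0.917% of the dilated (0.923 ± 0.00806). The 2 dilated libraries thus lay within the untreated range. The dilated share differed from the untreated by less than the spread between libraries (exact permutation test, two-sided, p = 0.6), and so did the constricted share (p = 0.7), where 0.1 is the smallest p either comparison allows.

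Dilation was accompanied by 40 changed transcripts in leukocyte nuclei, of 3027 genes tested across all 8 libraries (1.32%). Called genes had an absolute log2 fold change above 0.6 and a Benjamini-Hochberg adjusted p under 0.05 in edgeR's quasi-likelihood test on UMIs summed per library. *Pde3b*, *Pde4b*, *Pde7b*, *Abca1*, *Gpnmb* and *Cebpb* were among the 23 that rose (0.76% of genes tested), and *Mrc1*, *Rbpj*, *Hpgd* and *Cmah* were among the 17 that fell (0.562%). In all 40, dilated and untreated libraries did not overlap, as was the case for 28.1% of all genes tested. In summed nuclei, a loss of nuclei of one kind and a lower level per nucleus cannot be told apart. With untreated replicate 2 or 3, or dilated replicate 1 or 2, left out, there were 17, 7, 19 and 13 calls, of which 17, 7, 15 and 10 were among the 40, and without the 92 nuclei with 2 or more genes of the dendritic and MHC class II list, an alternative added after seeing the data, there were 20 calls, 19 of them shared.

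Transcripts of 3 phosphodiesterases rose. *Pde3b*, a phosphodiesterase that cyclic GMP inhibits, stood at 232, 424 and 433 CPM in untreated libraries, 431, 340 and 438 in constricted and 1194 and 1347 in dilated. The 2 dilated libraries were above all others, with a log2 fold change of 1.73 (SE 0.28, adjusted p = 0.00374). *Pde7b*, specific for cyclic AMP, stood at 265, 242 and 179 CPM in untreated, 226, 488 and 240 in constricted and 1057 and 739.7 in dilated libraries (log2 fold change 2.06, SE 0.33, adjusted p = 0.00374). *Pde4b*, also specific for cyclic AMP, stood at 33.1, 110 and 192 CPM in untreated, 162, 73.9 and 41.7 in constricted and 365 and 911 in dilated libraries (log2 fold change 2.26, SE 0.46, adjusted p = 0.0170). Again the dilated libraries were above all others, though they differed from each other. Of the 15 phosphodiesterase genes on the list in these tables, 7 were tested, 3 rose and 0 fell, and the median log2 fold change of the 7 was 1.11, against 0.01 over all genes tested. *Pde4d*, the most abundant of the list in untreated leukocytes (830 ± 145 CPM), was at 1596 ± 190 CPM in dilated libraries (log2 fold change 0.96, adjusted p = 0.162), and *Pde8a* and *Pde1c* had log2 fold changes of 1.11 and 0.23. The log2 fold change was above 0 for 6 of the 7. *Pde7a* of the list was at 157 ± 23.5 CPM in untreated and 108 ± 40.9 CPM in dilated libraries. The summed level of the list was 2164 ± 241 CPM in untreated, 2674 ± 582 in constricted and 5253 ± 193 in dilated libraries, so that only the dilated libraries stood above the rest. The share of leukocyte nuclei with a UMI of *Pde3b* was 50.3% in untreated, 62.0% in constricted and 85.3% in dilated libraries.

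*Abca1* and *Gpnmb* rose as well. *Abca1*, the transporter that exports cholesterol from macrophages, stood at 166, 341 and 285 CPM in untreated, 453, 577 and 230 in constricted and 881 and 938 in dilated libraries (log2 fold change 1.68, SE 0.34, adjusted p = 0.0170). *Gpnmb*, a glycoprotein of lysosomes and melanosomes, stood at 265, 330 and 210 CPM in untreated, 970, 503 and 302.5 in constricted and 986 and 951 in dilated libraries (log2 fold change 1.86, SE 0.37, adjusted p = 0.0170). For *Gpnmb*, constricted replicate 1 reached the dilated level. In all other nuclei *Gpnmb* was at 1164 CPM in untreated and 3682 CPM in dilated libraries, and 1 nucleus held 20.6% of its UMIs in the leukocytes of these groups. Without the 27 mixed nuclei its log2 fold change was 2.44. *Rai14*, an actin-binding protein gene, had 25.0% of its UMIs in 1 nucleus and was at 337 and 1174 CPM in the other nuclei (leukocyte log2 fold change 2.26, adjusted p = 0.0425). Its untreated leukocyte level of 48.0 CPM was too low to pass the filter on low counts by itself. The test of *Rai14* thus lends its rise no independent support. The part of free RNA from other nuclei in the values of *Gpnmb* and *Rai14* was not tested. Of 7 tested genes of the lipid and iron handling list, *Abca1* was the 1 that rose, none fell, and *Apoe*, the lipid carrier, was at 2125 ± 795 and 2158 ± 1207 CPM in untreated and dilated libraries. *App*, the amyloid precursor, stood at 497, 576 and 514 CPM in untreated and 2258 and 1162 in dilated libraries (log2 fold change 1.71, SE 0.30, adjusted p = 0.00809). *Man2a1*, a Golgi mannosidase of N-glycan synthesis (196 ± 89.8 CPM to 710 ± 266), and *Hgsnat*, a lysosomal enzyme of heparan sulfate breakdown (20.7 ± 13.6 CPM to 181 ± 99.0), rose with log2 fold changes of 2.11 and 3.28. *Hgsnat* had UMIs in 8 untreated nuclei, too few to pass the filter on low counts by themselves, so its test lends the rise no independent support.

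Genes of signalling proteins and a transcription factor were also among those that rose. *Cytip*, whose product binds cytohesin in leukocytes, had 0, 0 and 6.19 CPM in untreated, 0, 0 and 20.9 in constricted and 131 and 198 in dilated libraries (adjusted p = 0.0264). Its untreated level rests on 1 nucleus, so its fitted change is poorly determined, but its UMIs in dilated libraries came from 21 nuclei. *Cytip* passed the filter on low counts through the dilated libraries alone, so its p-value lends the rise no independent support. *Cyth1*, cytohesin 1 itself, rose by a log2 fold change of 1.88. *Cebpb*, a transcription factor induced by cyclic AMP and in macrophage activation, was at 33.1, 15.2 and 18.6 CPM in untreated and 124 and 291 in dilated libraries (log2 fold change 3.43, SE 0.80, adjusted p = 0.0380). It had UMIs in 8 untreated nuclei, too few to pass the filter on low counts by themselves, so its test lends the rise no independent support. *Arhgap24*, a GTPase-activating protein gene, rose (69.0 ± 31.1 CPM to 427 ± 5.71, log2 fold change 2.41, adjusted p = 0.00246), as did *Arhgap22* (1.55) and *Dock4* (1.14). *Inpp5d*, the lipid phosphatase SHIP1 that restrains signalling in leukocytes, was at 1159, 856 and 1034 CPM in untreated and 2004 and 2721 in dilated libraries (log2 fold change 1.28, SE 0.26, adjusted p = 0.0170). It was the 1 gene of 12 tested on the pan-leukocyte list that rose, and no other on that list was called. *Stk17b*, *Lrrc8d*, *Cdh23*, *Zdhhc14*, *Cnnm2*, *Antxr2* and the integrin *Itgb5* had log2 fold changes between 1.27 and 1.96. Untreated levels of *Arhgap24*, *Cnnm2* (55.5 CPM) and *Antxr2* (60.5 CPM) were too low to pass the filter on low counts by themselves. The tests of *Arhgap24*, *Cnnm2* and *Antxr2* thus lend their rise no independent support.

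Among the genes that fell was *Mrc1*, which the tissue macrophages carry at a high level. It stood at 2549, 2531 and 2550 CPM in untreated, 1704, 2988 and 2472 in constricted and 1292 and 911 in dilated libraries (log2 fold change -1.16, SE 0.28, adjusted p = 0.0425). *Mrc1* was called in 10 of 19 alternatives, including 3 of the 8 that left out 1 library, and had the same sign in all 19. Neither *Mrc1* nor *Rbpj* was called without the nuclei with 2 or more genes of the dendritic and MHC class II list, at log2 fold changes of -1.20 and -1.38. *Rbpj* stood at 4536, 2732 and 2779 CPM in untreated, 1833, 5177 and 2274 in constricted and 1240 and 647 in dilated libraries (log2 fold change -1.75, SE 0.39, adjusted p = 0.0297). Both dilated libraries lay below all others for both genes. The share of leukocyte nuclei with a UMI was 85.0% and 65.7% for *Mrc1* and 82.4% and 56.9% for *Rbpj* in untreated and dilated libraries. Of 23 macrophage genes tested, *Mrc1* was the 1 that fell and none rose, and the median log2 fold change of the 23 was 0.12. *Csf1r* was at 653 ± 50.9 and 584 ± 14.2 CPM, *F13a1* at 2295 ± 631 and 1781 ± 544 CPM, and *Stab1* at 1090 ± 31.1 and 1844 ± 568 CPM in untreated and dilated libraries, with adjusted p-values of 0.957, 0.869 and 0.211.

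Genes of several enzymes also fell. *Cmah*, the hydroxylase that makes the sialic acid N-glycolylneuraminic acid, stood at 265, 383 and 613 CPM in untreated, 151, 385 and 157 in constricted and 45.7 and 26.4 in dilated libraries (log2 fold change -3.47, SE 0.53, adjusted p = 0.00246). *Hpgd*, which inactivates prostaglandins, stood at 894, 557 and 724 CPM in untreated, 453, 222 and 396 in constricted and 111 and 66.0 in dilated libraries (log2 fold change -2.86, SE 0.40, adjusted p = 0.00230). For *Hpgd* the 3 groups did not overlap, with the constricted libraries between the others (constricted and untreated libraries did not overlap for 10.2% of all genes tested), although its change with constriction was not called (log2 fold change -0.90, adjusted p = 0.806). *Rasgrp3*, an activator of Ras, fell from 217 ± 77.6 to 39.5 ± 37.5 CPM (log2 fold change -2.84, adjusted p = 0.0170). *Arsb*, a sulfatase (1526 ± 286 CPM to 502 ± 112, log2 fold change -1.53), *Ctsc*, a cysteine protease (1099 ± 119 to 433 ± 126, -1.27) and *Atp6v0a1*, a subunit of the proton pump (877 ± 158 to 262 ± 146, -1.68), fell, as did *Clec2d*, a lectin-like ligand of NK cell receptors (-1.75), the selenium carrier *Selenop* (-1.83) and the ubiquitin ligase *Wwp1* (-1.62). *Ighm* stood at 298, 174 and 229 CPM in untreated, 97.0, 29.6 and 93.9 in constricted and 52.2 and 52.8 in dilated libraries (log2 fold change -1.99, SE 0.49, adjusted p = 0.0474), whereas *Bank1* of the same list was at 549 ± 122 and 397 ± 113 CPM (adjusted p = 0.739). *Ighm* passed the filter on low counts through the untreated libraries alone, so its p-value lends the fall no independent support. *Ripor2*, *Sesn1*, *Ptpra*, *Rad51b* and *3110035E14Rik* made up the rest, with log2 fold changes from -2.93 to -1.29. Like *Ighm*, *3110035E14Rik* passed the filter through the untreated libraries alone, so its test lends the fall no independent support.

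**Figure D4:**
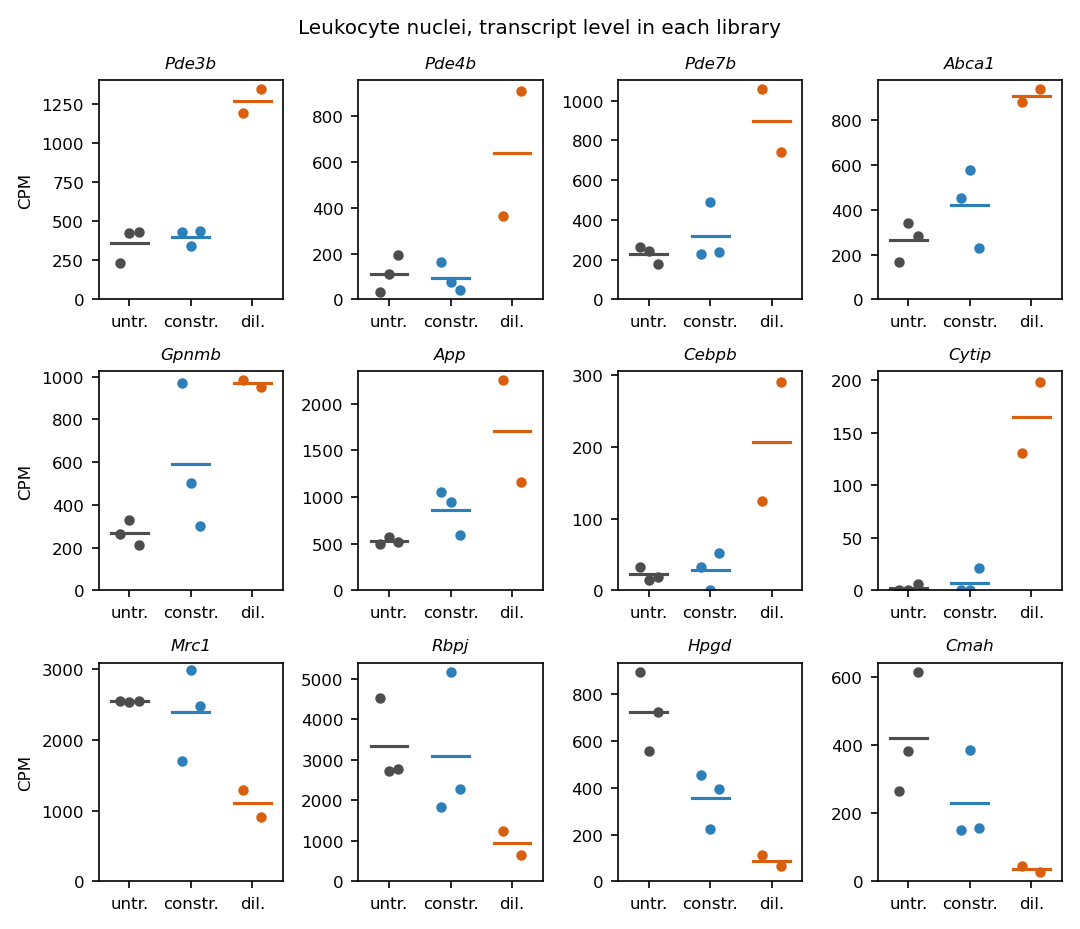
Transcript level in leukocyte nuclei of each library (points) and group means (lines), in CPM (y axes, from 0), for 12 genes called between dilated (dil., orange) and untreated (untr., gray) libraries, with constricted (constr., blue) beside them. The dilated points lie above all untreated points in the first 8 panels and below them in the last 4.

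Other gene lists gave few or no calls. None of 5 tested glucocorticoid-responsive genes was called, and their median log2 fold change was 1.13, with all 5 above 0. *Fkbp5* of that list, a chaperone of the glucocorticoid receptor, was at 364, 30.3 and 111 CPM in untreated and 241 and 1215 in dilated libraries, so that the groups overlapped (adjusted p = 0.0747). Of 24 immediate early genes 3 were tested and none was called (median 1.35). The summed level of that list was 331, 546 and 730 CPM in untreated, 399, 503 and 511 in constricted and 1149 and 1889 in dilated libraries, so that the dilated libraries were above all others. Leukocyte nuclei with UMIs of at least 2 of its genes were 15.4%, 30.2% and 33.8% of the nuclei in untreated, 15.8%, 42.1% and 25.7% in constricted and 48.5% and 61.8% in dilated libraries. None was called of 2 of the inflammatory cytokine and NF-kB list (median -0.82), none of 2 interferon response genes (median -0.42), none of 9 complement and Fc receptor genes (median 0.41), none of 8 chemokine receptor and adhesion genes (median -0.53), none of 4 microglia genes (median -0.48), none of 3 circadian clock genes (median -0.39) and none of 3 dendritic and MHC class II genes (median 0.22). The phagocytic receptor list had 13 tested genes, of which *Mrc1* fell and none rose, and *Rbpj* was the 1 gene of 10 of the M-CSF, TGF-beta and Notch list that fell. One gene each was tested of the cell cycle list (*Top2a*), the heat shock list and the neutrophil list, and none was called. Summed cell cycle transcripts were at 497, 121 and 446 CPM in untreated, 119, 207 and 104 in constricted and 19.6 and 79.3 in dilated libraries. *Top2a* had 42 UMIs in 13 nuclei (adjusted p = 0.325).

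Receptors for the drugs were weakly detected in leukocyte nuclei. *Adrb1*, an adrenergic receptor gene, had 17 UMIs in 16 of the 387 nuclei. Phenylephrine targets alpha1 receptors, and *Adra1a* and *Adra1b* each had UMIs in 15 nuclei, a lower share for *Adra1a* than the 24.7% of other nuclei. Of the muscarinic receptors, *Chrm3* had 56 UMIs in 8 nuclei (2.07%, against 10.6% of other nuclei), *Chrm2* 52 UMIs in 20 (5.17%, against 22.002%) and *Chrm1* 17 UMIs in 10 (2.58%, against 1.38%), while *Chrm4* had 1 UMI. The shares for *Chrm3* and *Chrm2* were thus below those of other nuclei. *Chrm3* was at 193 CPM in untreated replicate 2 and had no UMI in 5 of the 8 libraries. *Adra2a* had 6 UMIs and *Adra2c* 1, and no UMI of *Adra1d*, *Adra2b* or *Adrb3* was found. *Chrm2* was the 1 gene of these that passed the filter, and it was not called (log2 fold change -2.91, adjusted p = 0.432).

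The dilation effect in leukocytes was then set against that in all other nuclei of the same libraries, in 1 fit with a term for each library. Of 3027 genes, 50 differed in their log2 fold change (1.65%), 18 in the direction of more in leukocytes (0.595%) and 32 of less (1.06%). With scaling by library size alone 39 differed, 22 more and 17 less, and the median difference over all genes moved from -0.06 to 0.07. Against stroma 2 nuclei alone 37 genes differed, 18 of them among the 50. Without dilated replicate 1 or 2, 8 and 1 genes differed, and without untreated replicate 2 or 3, 5 genes did. Of the 40 genes called in leukocytes, 18 had a difference past the threshold, and 8 were also called in all other nuclei, where 503 of 18014 genes were called (2.79%), 323 of them risen (1.79%) and 180 fallen (0.999%).

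Among the risen genes, *Arhgap24* had a log2 fold change of 2.41 in leukocytes and -0.26 in other nuclei (difference 2.54, SE 0.34, adjusted p = 0.00160). Its untreated leukocyte counts alone would not have passed the filter on low counts, so this difference is a description. *Man2a1* had 2.11 and -0.19 (difference 2.23, adjusted p = 0.00303) and *Cyth1* 1.88 and -0.02 (difference 1.86, adjusted p = 0.0139). *Pde7b* had 2.06 and 0.37 (difference 1.59, SE 0.32, adjusted p = 0.0197). These 4 genes rose in leukocytes without a call in the other nuclei. *Pde3b* rose in both, by 1.73 in leukocytes and 3.08 in other nuclei, so that the leukocyte rise was smaller on the log2 scale (difference -1.41, SE 0.31, adjusted p = 0.0278). In the other nuclei it went from 6.87 to 50.9 CPM, and the leukocyte level of 363 CPM before dilation was thus already higher. *Abca1* (1.68 and 1.41) and *Gpnmb* (1.86 and 1.78) rose in both with differences of 0.23 and 0.11 that were not called. Among the fallen genes, *Rbpj* had -1.75 in leukocytes and 0.18 in other nuclei (difference -1.98, SE 0.40, adjusted p = 0.0197). For *Mrc1*, *Cmah* and *Hpgd* the difference was not called.

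Other genes with a difference past the threshold were not called in leukocytes. *Btg2*, an immediate early antiproliferative gene, had a log2 fold change of 4.38 in other nuclei and 1.35 in leukocytes (difference -2.74, SE 0.39, adjusted p = 0.00160), and its leukocyte levels were 132, 106 and 118 CPM in untreated and 137 and 475.5 in dilated libraries. *Hk2*, hexokinase 2, had 2.38 and -0.06 (difference -2.41, adjusted p = 0.00792), and the lysosomal protease *Ctsb* 1.38 and 0.01 (difference -1.30, adjusted p = 0.0406). *Btg2*, *Hk2* and *Ctsb* were called as risen in the other nuclei. *Cx3cr1*, called in neither, had 0.25 in other nuclei and -0.95 in leukocytes (difference -1.30, adjusted p = 0.0262). The choice of these genes was made with their values known.

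**Figure D5:**
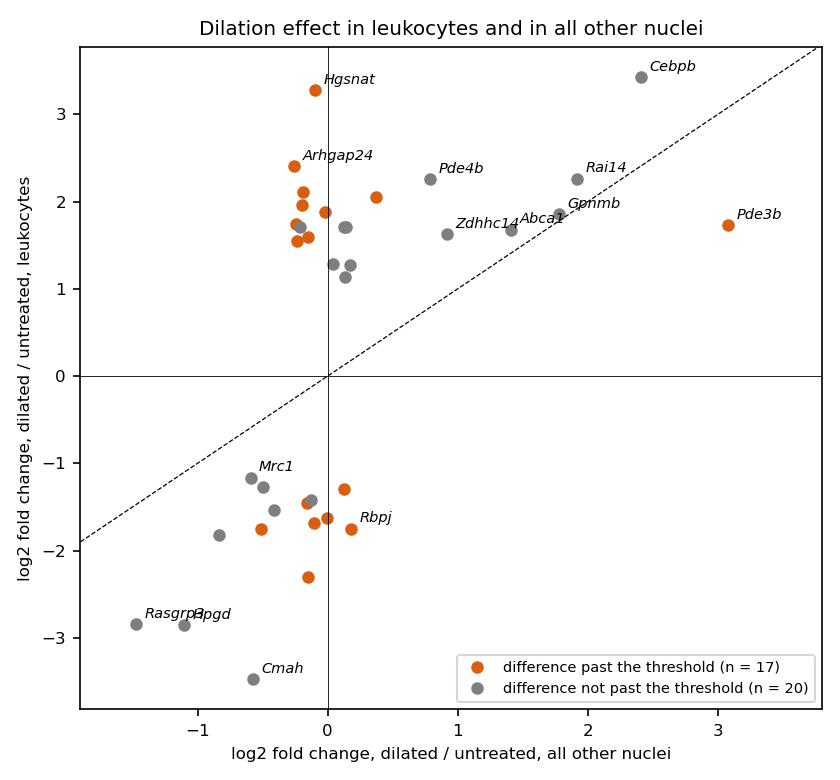
Log2 fold change of dilated over untreated libraries in leukocytes (y axis) against all other nuclei (x axis), for 37 of the 40 genes called in leukocytes that were also tested in the other nuclei, with a dashed line of equality. Orange points mark 17 genes whose difference passed the threshold, among them *Arhgap24* and *Hgsnat* near 0 on the x axis and *Pde3b* right of the line.

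Constriction gave no call in leukocyte nuclei. Of 3027 genes, 0 passed the threshold in edgeR's test (0% of genes tested), 0 did in DESeq2, and 167 had an unadjusted p under 0.05 (5.52%). Without the filter on low counts 6 genes were called. The dilated and constricted comparisons share the 3 untreated libraries. *Pde3b*, *Pde7b* and *Pde4b* had log2 fold changes of 0.08, 0.51 and -0.47 with constriction, *Abca1* 0.54, *Mrc1* -0.07 and *Rbpj* -0.07, with adjusted p-values from 0.958 to 1.00. *Gpnmb* had 1.15 and *Ighm* -1.44 (adjusted p = 0.806 for both). The median over all genes tested was 0.02.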

How the data were processed

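For each nucleus the authors deposited raw UMI counts of 22873 genes, made by aligning reads to the mm10 pre-mRNA index with Cell Ranger 3.1.0, without normalization; cell types and the percent of mitochondrial transcripts per nucleus were deposited by the authors after Seurat clustering and filtering. Nuclei assigned to leukocytes were summed per library, and the libraries, separate pools of irises, were the replicates. Counts were tested with edgeR 4.0.16 (R 4.3.3; filterByExpr, TMM, quasi-likelihood test, all 8 libraries in 1 fit, Benjamini-Hochberg adjustment), with DESeq2 1.42.0 as an alternative. Shares were compared by exact permutation over libraries. Scrublet (scanpy 1.11.5) called doublets, which stayed in except in alternatives. Other steps used Python 3.11.15, numpy 2.4.6, scipy 1.17.1 and pandas 2.3.3. The members and gene lists were chosen with earlier results of these data known. Named identity genes were the 24 of highest ratio to the next cell type among genes with at least 30 untreated UMIs; named dilation genes were the 20 risen and 10 fallen of lowest adjusted p, list members called and up to 4 abundant members per list, and further called genes and list members were named with their values known. The fit was tested on simulated data. Some listed genes are not reported here.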

Additional observations from a re-analysis of the deposited data

Results flagged for a closer look

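The dilation effect differed between leukocyte nuclei and all other nuclei for 50 genes, by edgeR's test of the difference itself (Benjamini-Hochberg adjusted p under 0.05). Of the genes called in leukocytes, the difference in log2 fold change, leukocytes minus other nuclei, was 3.34 for *Hgsnat*, 2.54 for *Arhgap24*, 2.23 for *Man2a1*, 2.15 for *Cnnm2*, 1.93 for *Antxr2*, 1.86 for *Cyth1*, 1.77 for *Arhgap22*, 1.60 for *Lrrc8d* and 1.59 for *Pde7b*, all of which rose in leukocytes. For *Cytip*, which also rose, it was 5.72 (SE 1.43) but is poorly determined, since the untreated level in leukocytes rests on 1 nucleus and other nuclei held 0.357 CPM in untreated and 0.491 CPM in dilated libraries, too low to be tested there. The untreated leukocyte counts of *Hgsnat*, *Cytip*, *Arhgap24*, *Cnnm2* and *Antxr2* alone would not have passed the filter on low counts. The differences of these genes are descriptions. *Pde3b*, which rose in both, had a difference of -1.41. Among genes that fell in leukocytes the difference was -2.53 for *Ripor2*, -1.98 for *Rbpj*, -1.62 for *Wwp1*, -1.62 for *Atp6v0a1*, -1.47 for *Rad51b*, -1.42 for *Ptpra* and -1.31 for *Clec2d*. With dilated replicate 2 left out, 1 gene differed. No group had enough libraries for a test of single outlying libraries.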

How the results depend on the processing

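All 40 genes called with dilation kept their sign in every alternative that could test them, and *Pde3b*, *Pde7b*, *Arhgap24*, *Hpgd* and *Cmah* were called in all 19. The 40 calls became 28 in DESeq2, 70 with the untreated and dilated libraries alone, 68 without mixed nuclei and 20 without nuclei holding 2 or more genes of the dendritic and MHC class II list, and 7 to 52 with 1 library left out, where a lone dilated library is assumed to vary like the other groups. With a replicate block 33 genes were called, 26 of them shared. Correlations of same-numbered libraries, in their deviations from group means, ran from -0.10 to 0.21. The 2 dilated libraries mirror each other in such deviations, so these values cannot decide whether the replicate numbers pair the libraries. The study processed the libraries in several batches, which the labels do not give. With constriction 6 genes were called without a filter, 1 with a block for the series of library numbers and 0 to 1 with 1 library left out. The 50 differences between leukocytes and other nuclei became 37 against stroma 2 nuclei and 1 to 61 with 1 library left out. The dilated minus untreated share of leukocytes ran from -0.476 to -0.0861 percentage points with 1 library left out, and the constricted minus untreated share from -0.271 to 0.124. The difference in the macrophage share ran from -1.47 to 0 percentage points, that in the dendritic and MHC class II share from -19.8 to 0.779 and that in the B cell share from -27.5 (at least 2 genes, 4.41% in dilated and 31.9% in untreated libraries, exact permutation p = 0.2) to -16.2, and no nucleus had 2 genes of the NK list (a difference of 0). The 158 genes more than 16-fold above the next cell type became 102 to 163 with 1 untreated library left out. Untreated replicate 1 had 13 leukocyte nuclei, and without it 31 genes were called with dilation.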
